A study of Mus musculus with 24 samples.

Results

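Cartpt and Uts2d, a pair of genes for precursors of secreted peptides, were followed through RNA-seq of lumbar and sacral dorsal root ganglia (DRG) of adult mice. They are 2 of the 37620 genes listed in the deposited expression table, and both were among the 12655 genes that passed the filter on low values described below. Both were chosen because their values were higher in sacral than in lumbar DRG, so their difference between levels is given here as a description, without a test. DRG are the clusters of sensory neurons and glia beside the spinal cord. All mice were of the strain C57Bl6, 6 to 8 weeks old, and the labels name no treatment. Whole ganglia of adjacent spinal segments from 1 mouse, pooled as lumbar or as sacral, made up each sample. The groups were lumbar male (n = 5), lumbar female (n = 7), sacral male (n = 5) and sacral female (n = 7). The sacral samples include the most caudal lumbar ganglion, which the study counted as sacral. Mouse numbers in the titles give 13 mice for the 24 samples (5 male and 8 female, where the study states 1 female fewer), of which 11 (5 male, 6 female) gave a sample of each level. A first batch held 5 female samples, and batch 2 held the other 19 samples with all males. The methods give the reason for the batches as a change of research facility.

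Neuropeptides are cut from longer precursors in the secretory pathway, stored in dense-core vesicles and released from the peripheral and central endings of sensory neurons, where they act on G protein-coupled receptors. Cartpt encodes the precursor of cocaine- and amphetamine-regulated transcript (CART) peptide, which is known from the hypothalamus, from autonomic pathways and from subsets of visceral sensory neurons. Uts2d, named Uts2b in RefSeq, encodes the precursor of urotensin-related peptide, which with urotensin II acts on the receptor encoded by Uts2r and is known as a vasoactive peptide.

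On the mm9 build Cartpt lies at chr13:100668439-100670638 on the minus strand, with 3 exons that cover 874 bases. Uts2d lies at chr16:27353408-27370325 on the minus strand, with 5 exons that cover 835 bases. No annotated gene overlaps either of them. The coding sequence has 130 codons in Cartpt and 114 codons in Uts2d, the stop codon included. The 3′ ends of both coding sequences are shown because the mature peptides are cut from the ends of these precursors, and cysteine codons are in capitals. The Cartpt stretch runs from codon 95 to codon 130 (chr13:100668874-100668981, minus strand) and holds all 6 cysteine codons of the gene. The Uts2d stretch runs from codon 75 to codon 114 (chr16:27361025-27361118 and chr16:27353798-27353823, minus strand, joined across an intron) and holds 2 of its 3 cysteine codons, at codons 107 and 112. The other is codon 10. In mature CART the cysteines are joined in disulphide bridges. In urotensin-related peptide the last cysteines close a small ring.
Cartpt coding end: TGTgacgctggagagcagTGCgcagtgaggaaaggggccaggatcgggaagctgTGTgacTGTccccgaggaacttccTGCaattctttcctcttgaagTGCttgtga
Uts2d coding end: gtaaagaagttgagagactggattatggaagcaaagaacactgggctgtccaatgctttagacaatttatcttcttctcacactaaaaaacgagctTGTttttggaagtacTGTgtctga

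The 250 bases before the RefSeq start of each gene are shown because the genes shared a direction between levels (GRCm38.p6 build, other coordinates than mm9, sequences from RefSeq). Both genes matched an entry, Cartpt at chr13:99900684-99900933 and Uts2d, as Uts2b, at chr16:27370240-27370489, both on the minus strand. Capitals mark matches, on either strand, to the cyclic AMP response element TGACGTCA, the GC-rich box GGGCGG or the core of the TATA box, spelled TATAA. The palindromic oestrogen response element was searched too and had no match in either window (0.064% of all windows hold one).
Cartpt promoter: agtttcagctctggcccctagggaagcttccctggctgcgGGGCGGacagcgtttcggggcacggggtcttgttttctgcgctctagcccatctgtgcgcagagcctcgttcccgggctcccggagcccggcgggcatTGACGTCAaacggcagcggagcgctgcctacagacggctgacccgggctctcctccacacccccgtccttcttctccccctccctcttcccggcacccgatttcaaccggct
Uts2d promoter: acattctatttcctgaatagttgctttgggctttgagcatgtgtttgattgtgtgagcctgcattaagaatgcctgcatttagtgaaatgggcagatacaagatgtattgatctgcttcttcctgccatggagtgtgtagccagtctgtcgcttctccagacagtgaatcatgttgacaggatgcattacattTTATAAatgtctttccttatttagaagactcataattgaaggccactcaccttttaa

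The upstream windows differed in composition. That of Cartpt had 66.8% G and C with 22 CG dinucleotides, and that of Uts2d had 39.6% with 1, beside medians of 52.4% and 6 over the 32807 windows of the same length. TGACGTCA lay 112 to 105 bases before the Cartpt start and occurred in 1.55% of all windows, and GGGCGG lay 210 to 205 bases before it and occurred in 32.7%. The capitals in the Uts2d window are TATAA matches on both strands that overlap (57 to 53 and 56 to 52 bases before the start), a motif found in 22.8% of windows. No motif of this search was present in both windows.

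The deposited values are log2 RPKM, that is reads scaled by gene length in kilobases and by library size in M reads, on a log2 scale, on which a difference of 1 is a 2-fold change. Whole read counts could be recovered from these values for both genes in every sample with a value, and a blank cell was read as 0 reads. Effective library sizes, which hold the authors' scaling between samples, were 27.6 to 44.6 M reads (median 39.6). They were 27.6 to 37.4 in batch 1 and 34.8 to 44.6 in batch 2. Markers of sensory neurons were high at both levels, with a summed RPKM of 10 markers from 1477 to 1897 in lumbar and from 1200 to 1685 in sacral samples. Of 10 markers of autonomic neurons 7 had a value, and their summed RPKM was 1.96 to 7.14 in lumbar and 1.76 to 5.42 in sacral samples. Hand1 and Hand2 had none and Dbh was blank in 12 of 12 lumbar and 11 of 12 sacral samples, while Slc18a2, the vesicular monoamine transporter, was read in every sample (mean log2 RPKM 1.55 and 1.53). Of 7 cholinergic and motor neuron markers 4 had a value, with a summed RPKM of 11.9 to 22.7 and 10.96 to 18.6. Chat, Slc18a3 and Mnx1 had none, Isl2 was read in every sample (3.84 and 3.73), and Slc5a7, the choline transporter, had a mean of -2.68 in lumbar and -0.09 in sacral DRG and was higher in sacral DRG in 9 of 11 pairs, without a test. The lumbar sample of female 22 stood apart, with a summed RPKM of 118 over 8 central glia markers, where the other samples had at most 6.56. Values without it are given beside several results of the members. In whole ganglia a change in the number of cells that express a gene cannot be told from a change in RNA per cell.

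Cartpt was at a modest level in lumbar DRG. In lumbar males 11 to 15 its log2 RPKM was 2.76, 2.22, 1.71, 1.55 and 1.12, from 81 to 216 reads, with a mean of 1.87 ± 0.63 (SD, n = 5). In lumbar females the lowest value was -0.25 (female 23, 28 reads), the median 1.73 and the highest 2.12, with a mean of 1.43 ± 0.83 (SD, n = 7). The lumbar sexes overlapped, and 1 female lay well below all other lumbar samples.

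In sacral DRG all Cartpt values were higher. Males 11 to 15 had 5.13, 4.09, 5.19, 4.74 and 3.90, from 447 to 1215 reads, with a mean of 4.61 ± 0.59 (SD, n = 5). Sacral females ranged from 3.65 through a median of 3.97 to 4.70, from 396 to 896 reads, with a mean of 4.01 ± 0.36 (SD, n = 7). The lowest sacral sample lay 0.89 above the highest lumbar sample on the log2 scale, so the levels did not overlap. Over both sexes the mean went from 1.61 ± 0.76 in lumbar to 4.26 ± 0.54 in sacral DRG (SD, n = 12 each).

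Uts2d was near the detection limit in much of the lumbar set. Lumbar males 11 to 15 had a log2 RPKM of 1.68, -1.80, 0.44, -2.72 and 1.86, which rest on 78, 8, 38, 4 and 103 reads. In lumbar females 19, 22 and 23 the values were -2.00, 0.70 and -3.66, from 6, 36 and 2 reads, and females 11 and 12 of batch 1 had -0.23 and -0.15, from 27 and 37 reads. Females 20 and 21 had a blank cell. The lumbar counts thus ran from 4 to 103 reads in males and from 0 to 37 in females. With the blank cells set to 0.5 reads the mean was -0.11 ± 2.06 in males (SD, n = 5) and -2.50 ± 2.83 in females (SD, n = 7). The 5 female values without the blanks averaged -1.07 ± 1.75 (SD).

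In sacral DRG Uts2d was read in every sample. Males 11 to 15 had 5.03, 4.61, 4.76, 3.98 and 3.36, from 861, 616, 690, 392 and 234 reads, with a mean of 4.35 ± 0.67 (SD, n = 5). In sacral females the lowest value was 1.91, the median 2.21 and the highest 4.44 (female 19), from 114 to 571 reads, with a mean of 2.68 ± 0.89 (SD, n = 7). All 12 sacral values lay above all 12 lumbar values, although by 0.054 only when the sexes were set together, since the lowest sacral sample was female and the highest lumbar sample male. Within a sex the gap was 1.50 in males and 1.21 in females. The 12 lumbar samples gave 339 Uts2d reads in sum and the 12 sacral samples 4294.

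**Figure D1:**
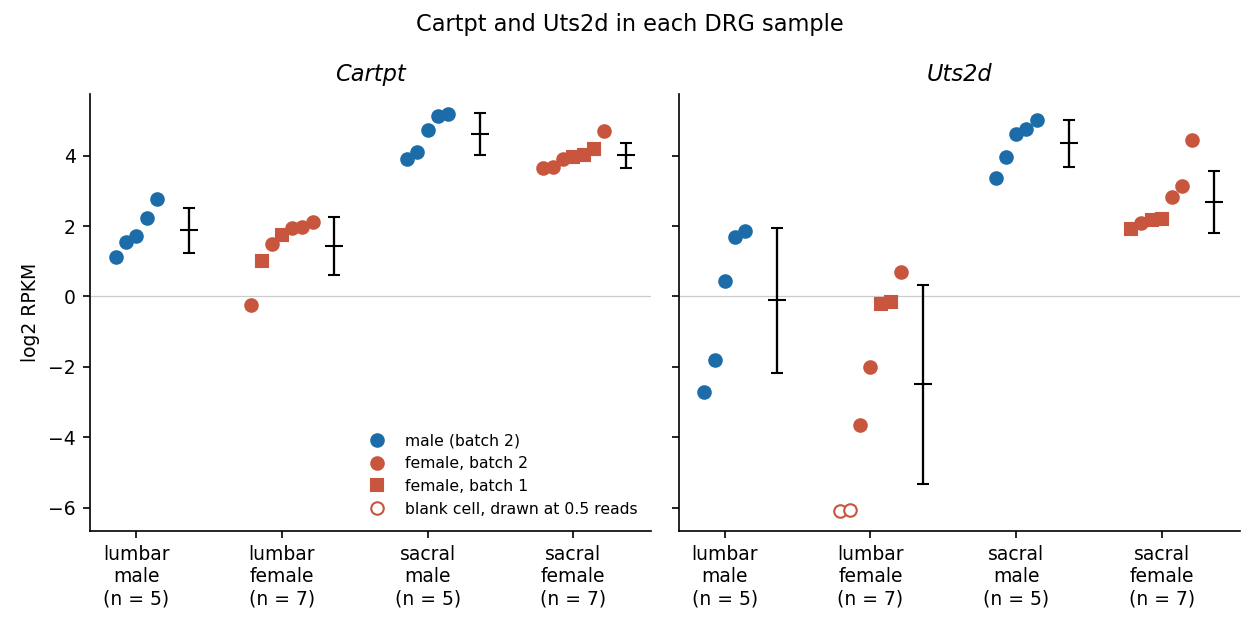
Log2 RPKM (vertical axis) of Cartpt and Uts2d in each of the 24 samples, by level and sex, with the group mean ± SD at the right of each group. Open circles are the 2 blank cells of Uts2d in lumbar females, drawn at 0.5 reads. All sacral points lie above all lumbar points for both genes, and the lumbar Uts2d values spread over the widest range.

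Of all genes tested, 14 (0.111%) had every sacral sample above every lumbar sample. Since the members were picked on this contrast, nothing is read from that share. The fitted difference, sacral minus lumbar, was 2.66 ± 0.25 (SE) on the log2 scale for Cartpt, the 20th highest of 12655, and 4.76 ± 0.71 (SE) for Uts2d, the highest. Cartpt was 62nd in males and 20th in females, and Uts2d 10th and 1st. The values by sex were 2.74 in males and 2.58 in females for Cartpt, and 4.45 and 5.06 for Uts2d. Cartpt passed the filter on low values in all 4 groups, while Uts2d passed it through the sacral groups alone. On the log2(RPKM + 1) scale the differences were smaller, 2.30 for Cartpt and 2.82 for Uts2d. The filter kept genes with a mean log2 RPKM of at least 0 in at least 1 group. Without the lumbar sample of female 22 the differences were 2.67 and 5.03.

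Blank cells were found for Uts2d in 2 of 7 lumbar females (28.6%), in none of the 5 lumbar males and in none of the 12 sacral samples, and for Cartpt in none of the 24 samples. The share over all samples was 8.33% for Uts2d. Among the genes tested, blank cells made up 0.581% of all values (0.599% in lumbar females), and 534 genes (4.22%) had at least 1 blank cell, so a blank was uncommon among genes that passed the filter but not particular to Uts2d. That filter selects against blank cells, which made up 30.3% of the values of all genes with a value in any sample (29.5% in lumbar females). A count of 0 allows up to 3 reads, which in these 2 samples is an RPKM of 0.116 and 0.117 on the scale of the deposited values. The blank samples were of batch 2, which was sequenced more deeply but had values for fewer genes (17527 to 18558 a sample, against 20508 to 21338 in batch 1). These limits and the intervals below cover counting error only, because amplified reads are not independent molecules.

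Set against the lumbar ganglia of the same mouse, both genes were higher in sacral DRG in 11 of 11 mice. For Cartpt the difference ran from 1.73 to 3.90 on the log2 scale with a median of 2.58, or from 3.31-fold to 14.9-fold with a median of 5.98-fold. Batch 1 mice had 2.27 and 3.18, inside the 1.73 to 3.90 of batch 2. The largest fold was that of female 23, whose lumbar sample had the lowest Cartpt value. Among all genes tested, 65 (0.514%) were higher in sacral DRG in every pair.

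The Uts2d differences were far more uneven. In the 10 mice with a lumbar value they ran from 1.50 to 6.81 on the log2 scale, with a median of 3.83. The fold was 2.83 in male 15, 4.34 in female 22 and 4.98 and 5.41 in the batch 1 females. It was 10.2 in male 11 and 19.9 in male 13. In male 12, female 19 and male 14 it was 85.1, 87.1 and 104, each against at most 8 lumbar reads. In female 23 it was 112, with a 95% counting interval of 30.7 to 934 because the lumbar value rests on 2 reads. In female 21, which had no lumbar read, Uts2d was at least 36.4-fold higher in sacral DRG, taken against a limit of 3 reads per library. The largest folds came from the lowest lumbar counts.

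**Figure D2:**
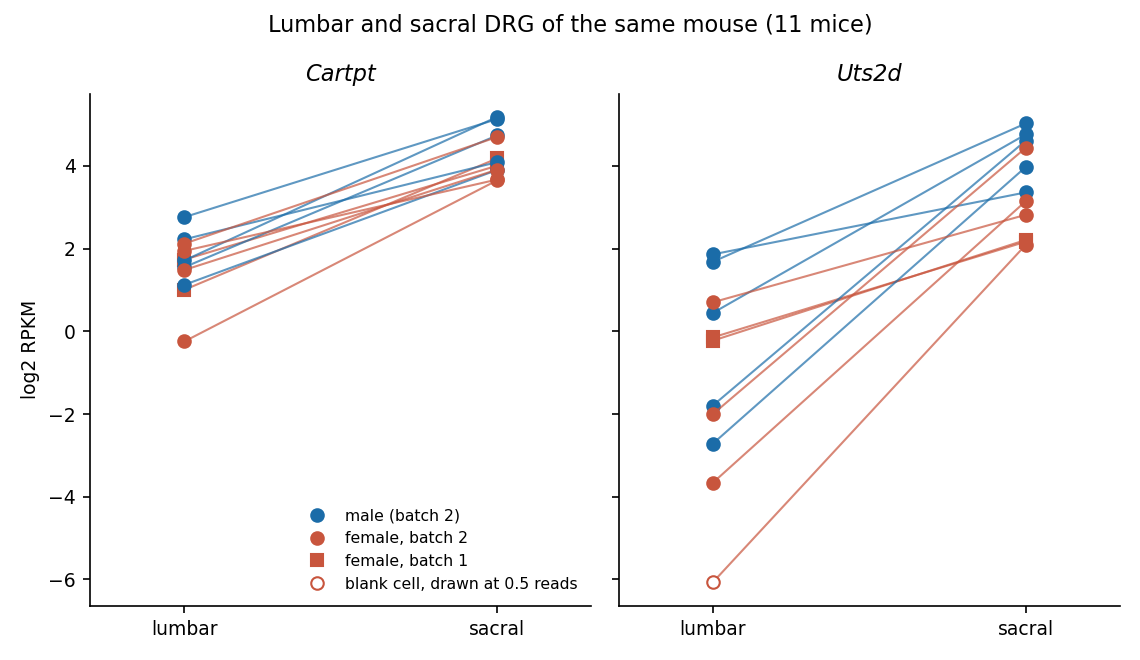
Log2 RPKM (vertical axis) of Cartpt and Uts2d in lumbar and sacral DRG, each line joining the samples of 1 of the 11 mice with both levels. All 11 lines rise in both panels. The Cartpt lines differ between 1.73 and 3.90, and the Uts2d lines differ more because the lumbar values, with 1 blank cell drawn at 0.5 reads, lie far apart.

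The batch step of the authors touched Uts2d more than Cartpt. They subtracted a difference, batch 2 minus batch 1, of -0.14 for Cartpt and -0.79 for Uts2d from the log2 values. Before that step the highest lumbar Uts2d value was 1.47 and the lowest sacral value 1.70, so the levels did not overlap there either. Before it, sacral females of batch 1 had 2.31 to 2.60 and those of batch 2 had 1.70 to 4.05, against 2.97 to 4.63 in sacral males.

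Sex was not used to choose the genes, and the female minus male difference was tested at each level with limma and Benjamini-Hochberg adjustment over all 12655 genes. Neither gene was called at either level, where 6 genes (0.0474%) were called in lumbar and 10 (0.079%) in sacral DRG. At an unadjusted p of 0.05 the counts were 936 (7.4%) and 1104 (8.72%). For Cartpt the difference was -0.45 ± 0.36 (SE, 95% interval -1.19 to 0.29, adjusted p = 0.813) in lumbar and -0.60 ± 0.37 (SE, -1.37 to 0.17, adjusted p = 0.677) in sacral DRG. Both intervals include 0, and the lumbar difference was -0.11 without female 23 and -0.22 without male 11.

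For Uts2d the sex differences were larger in size and less certain. In lumbar DRG the difference was -2.65 ± 1.03 (SE, 95% interval -4.78 to -0.52), with an unadjusted p of 0.0169 and an adjusted p of 0.598, but it was -0.96 with the blank cells left missing and -0.63 on the log2(RPKM + 1) scale. Without the lumbar sample of female 22 it was -3.36, with an adjusted p of 0.481. In sacral DRG it was -2.04 ± 1.08 (SE, -4.27 to 0.18, unadjusted p 0.0699, adjusted p = 0.615). The plain sacral means differed less, by -1.66. The fit shares its batch term between the levels, so lumbar values, blank cells included, enter the sacral estimate. Of the 7 sacral females, 6 lay below all sacral males, and female 19 lay among them. All males were in batch 2, so sex can be set against batch in batch 2 alone, where 3 of 4 sacral females lay below all males and the means differed by -1.22. The difference between levels did not differ between the sexes beyond its error in either gene. The interaction, female minus male, was -0.15 ± 0.50 (SE, adjusted p = 0.998) for Cartpt and 0.61 ± 1.43 (SE, adjusted p = 0.998) for Uts2d, and limma called 0 of 12655 genes for it, with 585 (4.62%) at an unadjusted p under 0.05 and 1 on the log2(RPKM + 1) scale. The sign of the Uts2d interaction turned with blank cells left missing (-0.71) and on the log2(RPKM + 1) scale (-0.77), and in batch 2 alone the value was 2.11. Leaving out 1 sample at a time gave 0.077 (without the lumbar sample of female 20) to 1.26 (lumbar male 14) for Uts2d, with 1.15 without the lumbar sample of female 22, and -0.41 (lumbar female 23) to 0.038 (lumbar male 15) for Cartpt, so neither interaction had a stable size and that of Cartpt no stable sign.

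RPKM values are per length and allow the genes to be set against each other within a sample. Cartpt was above Uts2d in 9 of the 10 lumbar samples with both values, by -0.74 to 4.27 on the log2 scale. In sacral males the genes lay close together, with Cartpt minus Uts2d at 0.26 ± 0.50 (SD, n = 5) and Cartpt higher in 4 of 5. In sacral females Cartpt was higher in 7 of 7, by 1.33 ± 0.72 (SD), or by 0.86 on average in the 4 females of batch 2. These differences hold the shift that the batch step gave each gene, before which the means in sacral males were 4.54 for Cartpt and 3.95 for Uts2d.

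Because the levels form separate clusters for genes chosen on that contrast, no correlation over all 24 samples is given, and the relation was measured within each level, with 1 sample per mouse and 100000 permutations. In lumbar DRG Cartpt and Uts2d showed no relation past the threshold (r = 0.082, permutation p = 0.806, rho = -0.077, n = 12, and r = 0.099 without female 22). Leaving out the 2 samples farthest from the Cartpt median turned r to -0.58, and leaving out the blank samples gave 0.40, so the lumbar value depends on a few samples. In sacral DRG the genes varied together, with r = 0.76 (permutation p = 0.0053, adjusted p = 0.024 over 18 relations, n = 12) and rho = 0.66 (permutation p = 0.0235, adjusted p = 0.0704). Without the 2 samples farthest from the median, males 11 and 13, r was 0.57 (permutation p = 0.0866), so the relation at this threshold rests on those samples. In batch 2 alone r was 0.83 (n = 9), and for deviations from the sex means it was 0.61 (permutation p = 0.0343, adjusted p = 0.0771 over 9 relations). Of 12120 genes with values in all samples, 106 (0.875%) had an r with Cartpt in sacral DRG as high as that of Uts2d.

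**Figure D3:**
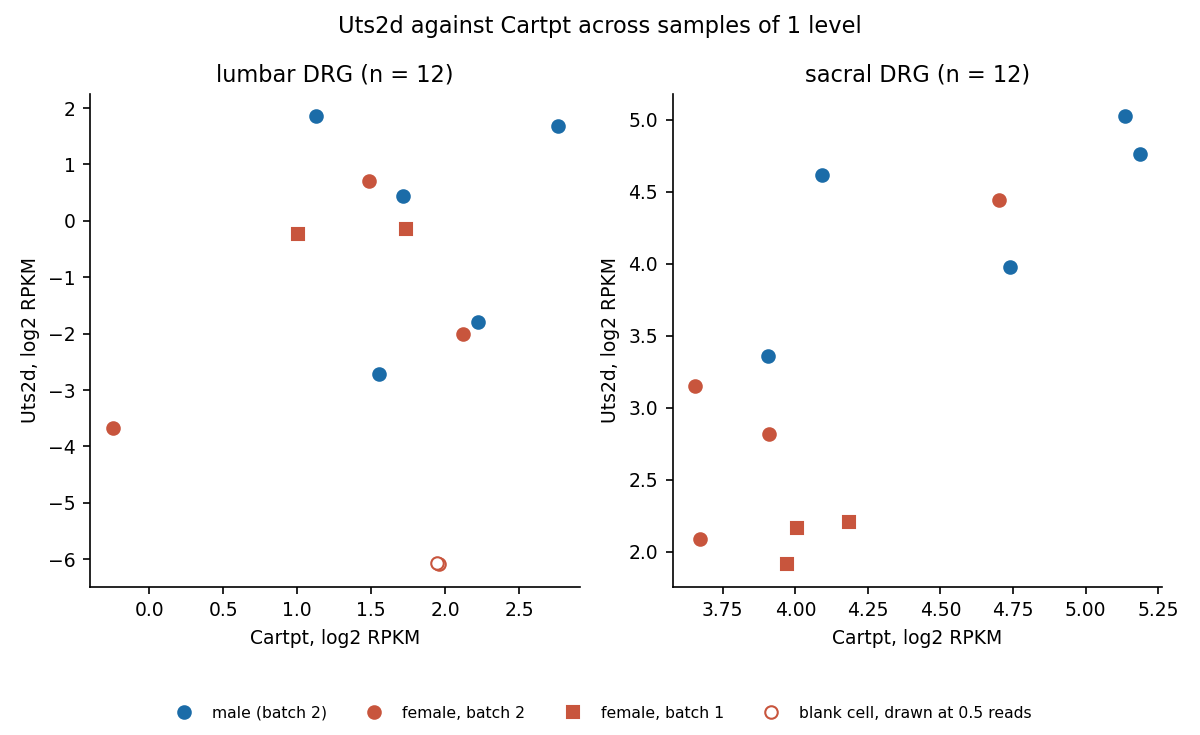
Uts2d against Cartpt (both log2 RPKM) in the 12 lumbar samples (left) and the 12 sacral samples (right), each point 1 mouse. The sacral points rise together, with the males mostly at the upper right (r = 0.76), while the lumbar points have r = 0.082 and include the 2 blank cells, which nearly coincide at 0.5 reads.

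Each gene was then set against 4 genes that the study describes in sacral DRG. These were Trpv1, the heat- and capsaicin-gated channel of nociceptors, Tac1, the substance P precursor, Chrna3, a nicotinic receptor subunit, and Esr1, the oestrogen receptor alpha. Cartpt followed Trpv1 in sacral DRG, with r = 0.84 (permutation p = 0.00083, adjusted p = 0.0149) and rho = 0.76 (adjusted p = 0.0363, n = 12), and r was 0.74 without the 2 farthest samples and 0.75 for deviations from the sex means (adjusted p = 0.0174). Only 20 of the 12120 genes (0.165%) had as high an r with Cartpt. Uts2d and Trpv1 gave r = 0.75 (adjusted p = 0.0275) and rho = 0.69 (adjusted p = 0.0637), but 0.54 for deviations from the sex means (adjusted p = 0.124). The study reports no Uts2d in its sorted adult Trpv1 neurons and proposes, as an interpretation, Trpv1-negative neurons or their glia as its source. Whether these genes share cells was not tested here. Sacral Tac1 values did not overlap between the sexes, with 8.38 to 8.77 in males and 7.44 to 8.06 in females, so no r over both sexes is given. Within the 7 sacral females Cartpt and Tac1 gave r = 0.96 (exact permutation p = 5.95e-04, adjusted p = 0.00536 over 9 relations), and for deviations from the sex means r = 0.81 (adjusted p = 0.0109, n = 12). For Uts2d and Tac1 the values were 0.58 in females (exact permutation p = 0.172) and 0.65 for the deviations (adjusted p = 0.0673). All relations within females, and those of the deviations for partners other than Uts2d, were added after the data were seen. In lumbar DRG Cartpt gave r = 0.46 with Trpv1 (adjusted p = 0.239) and 0.57 with Tac1 (adjusted p = 0.136), and Uts2d gave -0.012 and -0.10, so none of these passed at that level. No relation of either gene with Chrna3 or Esr1 passed the adjustment at either level. The largest of them was that of Cartpt with Esr1 in lumbar DRG (r = -0.62, adjusted p = 0.094).

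Both genes varied more between mice than most genes of their level. Within a sex the SD of Uts2d in sacral DRG was 0.81 on the log2 scale, and 98.4% of the 1976 genes of like mean had a smaller SD, with a median of 0.31. For Cartpt the SD was 0.46, and 92.7% of 1281 genes had a smaller one, with a median of 0.27. In lumbar DRG the shares were 78.0% for Uts2d and 80.1% for Cartpt.

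Of 43 other precursor genes on a fixed list 32 had a value and 12 were tested. By mean log2 RPKM over the 34 with a value, members included, Cartpt was 8th in lumbar and 6th in sacral DRG, and Uts2d was 13th and 8th. Within a sex Cartpt held place 7 at both levels in males and places 8 and 7 in females, and Uts2d places 13 and 8 in males and 16 and 8 in females. As the genes were chosen on this contrast, these places are a description. In sacral DRG Cartpt at 4.26 ± 0.54 stood between Calcb (5.21 ± 0.41), which encodes beta-CGRP, and Sst (3.71 ± 0.69), the somatostatin precursor. Uts2d at 3.38 ± 1.15 stood between Sst and Penk (3.32 ± 1.36), the enkephalin precursor (SD, n = 12 throughout). Each of these neighbours overlapped the next within 1 SD. As a share of the summed RPKM of all precursors, Cartpt went from 0.137 to 0.918% (median 0.54%) in lumbar to 1.45 to 2.87% (median 2.06%) in sacral samples, and Uts2d from 0 to 0.632% (median 0.0973%) to 0.435 to 2.38% (median 1.11%).

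Of the 12 other precursors tested, 4 were called higher in sacral DRG and none lower by limma at an adjusted p of 0.05, while 2.44% of all genes were called (1.15% higher and 1.29% lower). Tac1 was higher by 0.98 ± 0.09 on the log2 scale (SE, adjusted p = 2.00e-07). Adcyap1, the precursor of the neuropeptide PACAP, was higher by 1.20 ± 0.16 (SE, adjusted p = 4.92e-05) and Penk by 2.13 ± 0.33 (SE, adjusted p = 2.94e-04). Calca, which encodes alpha-CGRP, was higher by 0.44 ± 0.09 (SE, adjusted p = 0.0048). With the mean of the Schwann cell markers described below as a covariate, Tac1 alone of these 4 stayed called. The differences of the others were 2.25 for Penk, 1.06 for Adcyap1 and 0.39 for Calca. Only 5 of all 12655 genes were called with this covariate, and the SE of Adcyap1 rose from 0.16 to 0.27. Those markers were themselves lower in sacral DRG, so that covariate and level cannot be fully told apart. The median of the 12 differences was 0.38 and 8 were positive, beside a median of 0.0096 over all genes tested. Cartpt and Uts2d, at 2.66 and 4.76, had larger differences than any of these. The galanin precursor Gal (2.35 ± 0.69 SE, adjusted p = 0.0714) and Pmch, the melanin-concentrating hormone precursor (2.21 ± 0.80 SE, adjusted p = 0.167), singled out after their values were seen, did not pass, though Gal did without the lumbar sample of male 11 (2.75, adjusted p = 0.0216) or male 15 (1.58, adjusted p = 0.0297). On the log2(RPKM + 1) scale both were called (Gal 1.35, adjusted p = 0.0097, and Pmch 0.76, adjusted p = 0.021), but Pmch was tested only because sacral males passed the filter on low values, so its direction was favoured by the filter. Tac1 and Adcyap1 are among 13 of the genes that the study describes as higher in sacral DRG, all called higher here (median 1.22). Chrna3 was at 2.81 ± 0.24, Esr1 at 1.81 ± 0.24 and Trpv1 at 1.22 ± 0.17 (SE). Because the 13 were chosen on these samples, that count is no independent evidence of direction. The study also names Calca as higher in adult sacral DRG, so the calls of Tac1, Adcyap1 and Calca repeat its result on the same samples. With the Schwann cell covariate 4 of the 13 were called, and Esr1 (1.87, adjusted p = 0.119) and Trpv1 (1.38, adjusted p = 0.0961) were not among them, though their differences were no smaller. Esr1 and Gabrg3 of the 13 passed the filter on low values through the sacral groups alone.

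Between the sexes 1 of the 12 precursors was called. Tac1 was lower in sacral females than in sacral males by -0.86 ± 0.14 (SE, adjusted p = 0.0021). The study, which subtracted the batch term before its tests, reports both Tac1 and Penk as differing between the sexes in adult sacral DRG. The value for Penk in sacral DRG was -2.42 ± 0.50 (SE, adjusted p = 0.063), of similar size to the -2.04 of Uts2d. It passed without the sacral sample of female 19 (adjusted p = 0.0488) or the lumbar sample of female 22 (0.0153) or 23 (0.0041), and also on the log2(RPKM + 1) scale (0.0013), with batch left out of the model (0.0141) and with the sensory neuron covariate (0.0136). In lumbar DRG limma called none of the 12 between the sexes, with 2 at an unadjusted p under 0.05 (7.4% of all genes), and in sacral DRG 6 of the 12 were under it (8.72% of all genes). The counts of the levels were not tested against each other.

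**Figure D4:**
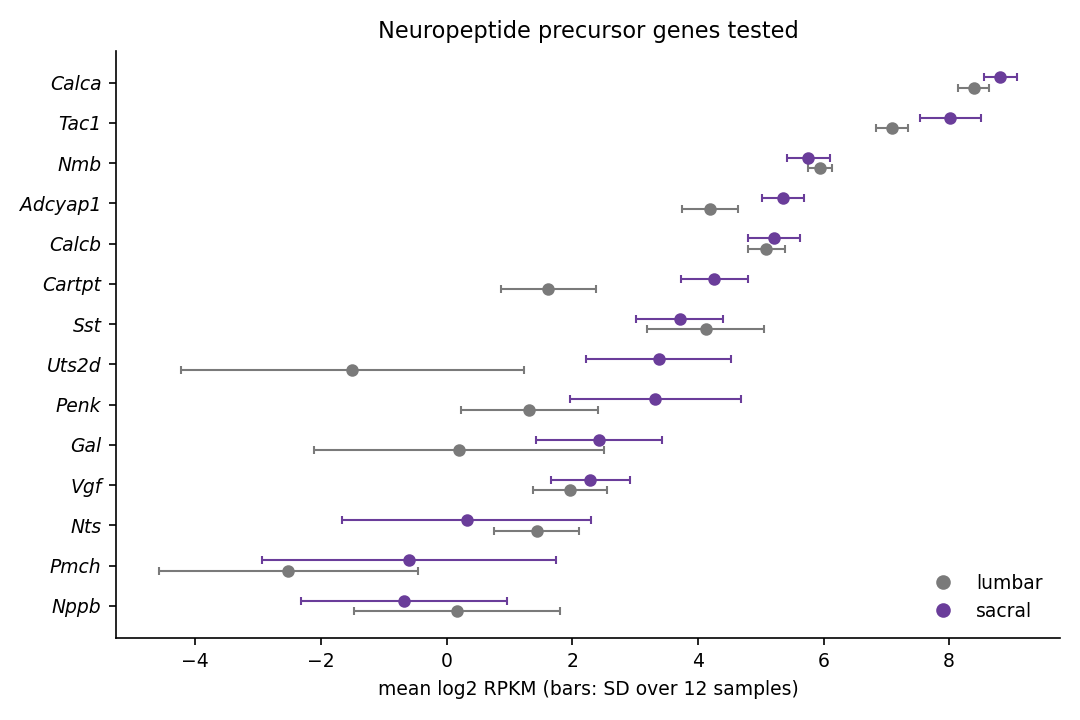
Mean log2 RPKM ± SD over 12 samples (horizontal axis) of the neuropeptide precursor genes tested, members included, in lumbar (grey) and sacral (violet) DRG, ordered by the sacral mean. Cartpt goes from 1.61 to 4.26 and Uts2d from -1.50 to 3.38, the widest steps of the panel.

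Of 15 genes for prohormone convertases, other processing enzymes and dense-core vesicle proteins, all tested, 2 were called higher and none lower, with a median of 0.14, beside the 1.15% called higher, 1.29% called lower and median of 0.0096 over all genes. Scg2, a secretogranin of dense-core vesicles, was higher by 0.70 ± 0.08 (SE, adjusted p = 9.80e-06), from 6.59 ± 0.16 to 7.27 ± 0.19 (SD, n = 12 each). Qpct, which forms the pyroglutamate end of some peptides, was higher by 2.28 ± 0.48 (SE, adjusted p = 0.0071), but it passed the filter on low values through the sacral groups alone, so that this direction was favoured and the call supports nothing about the list. Neither was called with the Schwann cell covariate (Scg2 0.58, adjusted p = 0.134, and Qpct 3.38, adjusted p = 0.121). With it 5 genes in all were called.

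Other genes of the urotensin system and a proposed CART receptor gene were read at low levels. Uts2, the paralogous urotensin II precursor, was blank in 12 of 12 lumbar and 10 of 12 sacral samples, and the urotensin receptor gene Uts2r was blank in 8 and 9 of 12. Neither was tested, so no other gene of the urotensin system could be set against Uts2d. Gpr160, a proposed receptor of CART peptide, had a mean of -1.01 ± 1.23 in lumbar and -0.30 ± 1.46 in sacral DRG (SD, n = 12 each), with a difference of 0.86 ± 0.54 (SE, adjusted p = 0.519). Of 33 neuropeptide receptor genes, these included, 32 had a value and 12 were tested. Npy1r, a neuropeptide Y receptor, was higher by 1.09 ± 0.15 (SE, adjusted p = 5.61e-05) and the galanin receptor Galr1 by 1.58 ± 0.33 (SE, adjusted p = 0.0077). Cckar, a cholecystokinin receptor, was lower by -0.58 ± 0.14 (SE, adjusted p = 0.024), a call lost without the sacral sample of male 13 (adjusted p = 0.052), with the mouse as a fixed block (0.076), in batch 2 alone (0.082) and with the Schwann cell covariate (0.904). That covariate also ended the calls of Npy1r (0.96 ± 0.25 SE, adjusted p = 0.243) and Galr1 (0.72 ± 0.53 SE, adjusted p = 0.91). With it 5 genes in all were called. The median of the 12 was 0.51, beside 0.0096 over all genes, and Oprk1, Sstr4 and Gpr160 passed the filter on low values through the sacral groups alone, which favours a positive median.

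Markers of other cells also differed between levels. For the myelinating Schwann cell, 9 of 11 markers were called lower in sacral DRG, with a median of -1.30, and their summed RPKM was 2286 to 5179 in lumbar and 1109 to 2736 in sacral samples. With the mean of these markers as a covariate the differences of the members were 3.01 for Cartpt and 4.41 for Uts2d, against 2.66 and 4.76 without it. With the mean of the sensory neuron markers they were 2.66 and 4.72. Of the 10 sensory neuron markers 1 was called, lower in sacral DRG, a call lost when any of 17 of the 24 samples was left out. Of the 6 peptidergic nociceptor markers (Tac1, Calca and Trpv1 among them) 4 were called higher, and of the 5 non-peptidergic ones none, beside 2.44% called over all genes. With the Schwann cell covariate 1 of the 6 was called, where 5 genes in all were called. Of 6 markers of large myelinated neurons 3 were called lower and 1 higher, and 2 were called with the mouse as a fixed block and none with the Schwann cell covariate. No marker of satellite glia (6 tested), endothelium and mural cells (8), fibroblasts (5), immune cells (4), central glia (2), autonomic neurons (1) or cholinergic and motor neurons (1) was called by limma. Of the endothelium and mural markers 1 was called in batch 2 alone, with samples centred on their median and without the lumbar sample of female 12, and of the satellite glia markers 1 with the fixed block. Of the 32 markers in the lists with no call, 3 had an unadjusted p under 0.05, where 14.1% of all genes tested did. The part of cell makeup in the members' difference was otherwise not tested.

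The genes that flank the members were read for the same contrast. Of the 12 nearest protein-coding genes, 3 on each side of each member, 9 were tested and none was called by limma, nor had any an unadjusted p under 0.05. With 2.44% of all genes called and 14.1% at an unadjusted p under 0.05, so few among 9 genes is near the background. Around Cartpt the differences were 0.10 for Ptcd2, -0.13 for Mrps27, -0.24 for Mtap1b, 0.69 for Mccc2, -0.05 for Bdp1 and -0.38 for Serf1, with adjusted p from 0.39 to 0.92. Mccc2, which lies 47.85 kb away, is the nearest. Around Uts2d they were 0.12 for Ccdc50, 18630 bases away, 0.06 for Fgf12 and -0.09 for 1600021P15Rik, with adjusted p from 0.704 to 0.913. Ostn, 2110 bases from Uts2d on the other strand, had no value in any sample, and Il1rap and Gm606 did not pass the filter. Whether the counting used strand is not given in the sources used here, but no annotated gene overlaps either member.

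The genes most like each member were taken from the deviations of samples from their group means, which take out the means of level and sex. For Cartpt, over 24 samples and 12120 genes, these were Fam174a (r = 0.79), Gar1 (0.79), Rap1b (0.79), Xrcc6 (0.79) and Zfp874b (0.77), where 95% of genes lay between -0.50 and 0.50. For Uts2d, over the 22 samples with a value, they were Tnfrsf18 (0.76), Lrrc32 (0.74), Gm6851 (0.74), Chchd10 (0.73) and Plekhg2 (0.73), where 95% lay between -0.55 and 0.45. Cartpt held place 523 of 12121 for Uts2d (r = 0.39). None of the 10 genes named here was called between levels. The points share libraries and mice, and the values are a description.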

How the data were processed

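RNA of whole ganglia was amplified (NuGEN Ovation v2), tagmented (Nextera XT) and sequenced (HiSeq2500). Per the labels and methods, the authors aligned reads to mm9 with Subread (versions 1.18 and 1.20.6 in the submitters' processing notes), kept uniquely mapping reads, counted them per Ensembl gene with featureCounts and deposited log2 RPKM made with limma 3.26.9 and TMM sizes from edgeR 3.12.1, from which they subtracted the batch difference (removeBatchEffect). The batch step was undone per gene and reads recovered as whole multiples of a sample's step (tolerance 0.02).

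Genes with a mean log2 RPKM of at least 0 in at least 1 group were tested with limma 3.58.1 (statmod 1.5.0, R 4.3.3). The model held 4 group means and batch, the mouse as a random block, and a trended variance. Blank cells were set to 0.5 reads, without the shift of the batch step (0.39 on the log2 scale for Uts2d in batch 2). Calls were made at a Benjamini-Hochberg adjusted p of 0.05. Correlations used scipy 1.17.1. The fit was tested on simulated data.

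Samples of 1 mouse share a number in the titles. Their deviations from group means had a mean correlation of -0.063 (-0.308 to 0.046 over 11 mice). Samples are separate mice within a group.

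The members and all lists were chosen with earlier results of these data known. Named genes were the members, called precursor genes, up to 5 called genes of each other peptide list, 4 genes described by the study, the 3 nearest coding genes on each side, and the 5 most alike. Some further genes, among them Gal, Pmch, Gpr160, Uts2, Uts2r and several cell type markers, were named outside this rule. Names and mm9 coordinates came from GENCODE M1, which may be of another Ensembl release than that of the authors. Alternatives covered the block, blank cells, scale, filter, batch, centring, cell covariates and leaving out each sample.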

Additional observations from a re-analysis of the deposited data

Results flagged for a closer look

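For the values of Cartpt and Uts2d, 8 groups were tested for a sample that stands apart by its gap to the nearest other sample, relative to the group's range, and none did. For the summed RPKM of marker lists 48 groups were tested and 4 had such a sample, where chance alone gives about 1 in 20. Female 22 had 118 for central glia markers in lumbar DRG, with the next lumbar female at 5.74. Its Uts2d value of 0.70 was the highest of the lumbar females. Female 11 of batch 1 had 303 for immune markers in sacral DRG, with the next sacral female at 75.3. Its sacral Cartpt and Uts2d values, 4.18 and 2.21, lay inside the range of the other sacral females. Female 20 had 302 for satellite glia markers in lumbar DRG, with the next at 240.2, and was 1 of the samples with a blank Uts2d cell. Male 13 had 105.8 for endothelial and mural markers in lumbar DRG, the lowest of its group, with the next at 121.2.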

How the results depend on the processing

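The sacral minus lumbar difference kept its sign in both genes under all alternatives run, from 2.30 on the log2(RPKM + 1) scale to 3.01 with the Schwann cell covariate for Cartpt and from 2.82 on the log2(RPKM + 1) scale to 5.51 in batch 2 alone for Uts2d. Leaving out 1 sample at a time gave 2.53 to 2.77 and 4.43 to 5.03, and a fixed replicate block for the 11 mice with both levels gave 2.71 and 4.58. With this block the interaction was -0.06 for Cartpt and 0.26 for Uts2d, and 157 genes were called between levels, against 309 with the mouse as a random block and 318 with no replicate block. The fixed replicate block ended the call of Cckar (adjusted p = 0.076) and took the calls among large myelinated neuron markers from 4 to 2, among sensory neuron markers from 1 to 0 and among satellite glia markers from 0 to 1. The Uts2d interaction reversed to -0.71 with blank cells left missing and to -0.77 on the log2(RPKM + 1) scale, and it was 2.11 in batch 2 alone. Without 1 sample the Cartpt interaction ran from -0.41 to 0.038 and that of Uts2d from 0.077 to 1.26. With 1 sample left out, the female minus male difference of Cartpt ran from -0.64 to -0.11 in lumbar and from -0.78 to -0.46 in sacral DRG. That of Uts2d ran from -3.36 to -1.98 and from -2.59 to -1.81. Under the other alternatives the Uts2d difference reached -0.63 in lumbar DRG on the log2(RPKM + 1) scale and -1.21 in sacral DRG in batch 2 alone.

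With the Schwann cell covariate 5 genes were called between levels, 1 precursor (Tac1), 0 processing genes and 0 receptors, and Gpr160 went to -0.36. The peptide genes named above that lost their call there had 0.39 (Calca) to 3.38 (Qpct) where called higher and -0.35 for Cckar, with the sign they had without it. Processing genes called fell to 1 when the mean over all samples had to be at least 0. Genes called between the sexes in lumbar DRG went to 0 under that filter. In sacral DRG they went to 3 under it, to 5 with blank cells missing, to 16 on the log2(RPKM + 1) scale and to 32 with batch left out of the model. On the log2(RPKM + 1) scale 1 gene, Srd5a2, had an interaction. Gal was called with blank cells missing (1.58, adjusted p = 0.024). The cause of these changes was not tested.

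The sacral correlation of Cartpt with Uts2d was 0.57 without the 2 farthest samples, 0.62 in females alone and 0.69 to 0.85 without 1 sample, and the lumbar one was -0.58, -0.065 for deviations from the sex means and -0.18 to 0.19 without 1 sample. That of Uts2d was 0.54 for deviations and 0.53 in females with Trpv1, and 0.58 in females with Tac1. That of Cartpt with Esr1 in sacral DRG was -0.040 for deviations and -0.37 in females. Of 1729 values for 57 results, 10 reversed, 18 no longer passed the threshold and 11 newly passed it. Another 42, all counts of genes called, changed in size by over 1.5 times. For sex differences and interactions a change of size alone was not counted. The Uts2d interaction, for example, went from 0.61 to 0.077 without the lumbar sample of female 20. Lumbar Uts2d rests on 0 to 103 reads, which limits the size of its folds.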
